A study of Mus musculus with 6 samples.

Results

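The Ifitm genes encode interferon-induced transmembrane proteins. The 4 genes followed here were Ifitm1, Ifitm2, Ifitm3 and Ifitm6, picked by gene name as a family, with their array values already known. Probes were assigned to them through the RefSeq accession that the scanner files give for each probe. Of the 4 genes, 3 had a probe (1 each) and were among the 4488 genes tested, and Ifitm2 was not analysed here because no probe used carried one of its accessions. RNA came from C5aR+ LysoDCs of mouse Peyer's patches, lymphoid follicles in the wall of the small intestine. LysoDCs are lysozyme-expressing mononuclear phagocytes, and C5aR+ marks those that carry a receptor for C5a, the small fragment released from complement component C5. In all 6 samples CD11c+ cells had been enriched with beads and C5aR+ LysoDCs sorted and cultured with CSF-1 and CFS-2, as the labels spell them. The untreated group (0 nM C5a, n = 3) and the C5a group (100 nM recombinant C5a for 3 h, n = 3) each held samples numbered 1 to 3. The series addresses whether C5a sets off intracellular signalling in these cells. Strain, age, number of animals per sample and the culture time of untreated cells are not given in the sources used here. No source says that the replicates were separate animals, so p-values measure only the spread between these samples, which may be technical.

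IFITM proteins are small palmitoylated membrane proteins that hinder the fusion of many enveloped viruses with cell membranes. IFITM3 sits mainly in late endosomes and lysosomes, whereas IFITM1 is found more at the cell surface. Many Ifitm genes are switched on by interferons through the ISRE, the interferon-stimulated response element in their promoters, and some cells express them without added interferon. In the annotation, Ifitm5, Ifitm2, Ifitm1, Ifitm3 and Ifitm6 follow each other in this order on chromosome 7. Only a pseudogene and a lncRNA gene are annotated between them, both between Ifitm1 and Ifitm3. Ifitm7 lies apart, on chromosome 16.

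The start regions of the 3 measured genes are shown because they differ in matches to the ISRE. Each runs from 250 bases before to 50 bases after the annotated start, 5′ to 3′ along the gene's strand, from RefSeq on GRCm38.p6. Ifitm1 is at chr7:140967826-140968125 on the plus strand, Ifitm3 at chr7:141010695-141010994 on the minus strand and Ifitm6 at chr7:141016843-141017142 on the minus strand. Capitals mark matches to the ISRE core, spelled here as GAAA, any 2 bases and GAAA again, searched on both strands.
Ifitm1: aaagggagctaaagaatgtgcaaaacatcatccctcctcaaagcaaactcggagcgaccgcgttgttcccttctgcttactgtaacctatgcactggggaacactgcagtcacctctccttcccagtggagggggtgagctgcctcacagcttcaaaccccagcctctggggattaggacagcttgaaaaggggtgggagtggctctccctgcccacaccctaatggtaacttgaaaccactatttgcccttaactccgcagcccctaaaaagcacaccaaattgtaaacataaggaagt
Ifitm3: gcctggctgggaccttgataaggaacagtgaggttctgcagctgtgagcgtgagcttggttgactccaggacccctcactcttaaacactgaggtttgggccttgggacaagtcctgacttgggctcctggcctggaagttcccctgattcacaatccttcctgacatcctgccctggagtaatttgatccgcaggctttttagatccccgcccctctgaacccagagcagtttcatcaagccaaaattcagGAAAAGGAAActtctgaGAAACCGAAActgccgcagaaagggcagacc
Ifitm6: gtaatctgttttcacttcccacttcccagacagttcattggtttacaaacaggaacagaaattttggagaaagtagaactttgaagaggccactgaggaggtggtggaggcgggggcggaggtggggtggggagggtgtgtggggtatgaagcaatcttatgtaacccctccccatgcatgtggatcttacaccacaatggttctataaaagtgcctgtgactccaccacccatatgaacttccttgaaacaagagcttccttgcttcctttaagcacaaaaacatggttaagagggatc
Ifitm3 held 2 ISRE core matches, starting 2 and 19 bases after its start, while Ifitm1 and Ifitm6 held 0 in these windows. The window of Ifitm2 held 1, GAAAAGGAAA, which has the same letters as the first match of Ifitm3 and begins 46 bases before the start. Of 32851 such windows in the table, 3.44% held at least 1 match. Another motif, GAS, spelled as TTC, any 3 bases and GAA, was searched as well and is not marked. Ifitm3 and Ifitm6 held 1 GAS match each and Ifitm1 held 0, where 8.3% of all windows held at least 1. A match is a description of letters and says nothing of binding in these cells.

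The arrays were dim and uneven in brightness. Of 56605 probes, 2727 to 6959 were well above background per array, and no spot was saturated. The 75th percentile of processed signal over the 2370 probes that every array detected was lowest on untreated 3, at 109, and highest on untreated 2, at 460. It was 163.5 and 253.8 on untreated 1 and C5a 1, 377.3 on C5a 2 and 154 on C5a 3. Levels below are log2 processed signals minus this percentile, and each probe is compared only with itself. Among markers of LysoDCs and other mononuclear phagocytes, 11 of 14 were well above background on some array, and Cx3cr1, Mertk and Fcgr1 on none. Their summed level, in multiples of the array's percentile, was 9.49 to 16.4 in untreated and 10.5 to 18.5 in C5a samples. This sum was lowest on both arrays numbered 3 (9.49 and 10.5), but it weighs bright markers such as Lyz1 most. Of the 10 markers of this list detected on all arrays, 5 were lowest in both samples numbered 3, as were 16% of all genes detected on all arrays. Cd68 was highest there, at 0.74 and 0.83 against 0.05 to 0.17 on the other arrays. None of 8 epithelial markers was well above background on any array (summed level 0.05 to 0.297 in untreated and 0.0743 to 0.183 in C5a samples). The same held for 8 stromal or endothelial markers (0.0614 to 0.291 and 0.0546 to 0.172). Every summed level here includes markers that were not above background. The B and T cell ranges below overlap those of these undetected lists. Detected were 2 of 6 B cell markers (summed level 0.129 to 0.359 in untreated and 0.111 to 0.269 in C5a samples), 1 of 5 T cell markers with a probe (0.188 to 0.436 and 0.142 to 0.340), 3 of 4 plasmacytoid markers (0.397 to 0.975 and 0.279 to 0.840) and 3 of 9 monocyte and neutrophil markers (1.55 to 3.14 and 2.20 to 2.75). Their part in the Ifitm values was not tested. In bulk samples, fewer cells of a type and less RNA per cell cannot be told apart.

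Ifitm1 was measured well above background on all 6 arrays (probe A_55_P2146254). In order of number, its level was -0.21, -0.73 and -2.97 without C5a, and 0.19, -0.68 and -2.50 with C5a. Both samples numbered 3 were far below the other 4, while the treatment groups overlapped almost fully. Before scaling, the processed signals in the same order were 141.6, 276.8 and 13.9 units, and 289.8, 235.6 and 27.1 units. The scanner software's own error on these spots was 10.0% to 20.0% of the signal. It was largest on untreated 3, where the Ifitm1 level lay near the lowest level called for any probe (-3.14). The gap between the higher sample numbered 3 and the lowest of the other 4 was 1.77 on the log2 scale, a 3.42-fold step. The mean level was -1.30 ± 1.47 (SD, n = 3) in untreated and -0.998 ± 1.38 (SD, n = 3) in C5a samples. The log2 difference, C5a minus untreated, was 0.30 (SE 0.90, 95% interval -1.82 to 2.43), an interval from 0.284-fold to 5.37-fold. Within same-numbered pairs it was 0.40, 0.05 and 0.46 for numbers 1 to 3. With the replicate block, in which same-numbered samples are compared with each other, the SE was 0.22 and the interval -0.27 to 0.88. The sign without the block turned when untreated 3 was left out (-0.53) and when C5a 1 was left out (-0.29).

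Ifitm3, the family member with the best-described antiviral role, was also well above background on all 6 arrays (probe A_55_P2762554). In order of number, its level was -1.02, -0.66 and -1.53 without C5a, and -0.42, -0.53 and -1.26 with C5a. The samples numbered 3 were again the lowest of the 6, but by only 0.24 on the log2 scale (1.18-fold), and the treatment groups overlapped. The means were -1.07 ± 0.44 (SD, n = 3) in untreated and -0.74 ± 0.45 (SD, n = 3) in C5a samples. The log2 difference was 0.33 (SE 0.36, 95% interval -0.52 to 1.18), which spans 0.699-fold to 2.27-fold. All 3 pairs had a positive difference, of 0.60, 0.13 and 0.27 for numbers 1 to 3. With the replicate block the SE was 0.22 and the interval -0.25 to 0.92.

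Ifitm6, whose product is less studied, gave a dim signal (probe A_51_P294555). It was well above background on untreated 1 and 2 and on C5a 1 and 2, and on neither sample numbered 3. The measured levels were -3.29 and -2.76 in untreated 1 and 2, and -4.14 and -3.30 in C5a 1 and 2. In both of these pairs the C5a sample had the lower value, by 0.85 for number 1 and 0.54 for number 2 on the log2 scale. The readings on untreated 3 and C5a 3, -4.98 and -5.55, came from spots whose own error was 80.8% and 100.4% of the signal. The lowest level of any probe called well above background was -3.14 on untreated 3 and -3.81 on C5a 3. These levels are not upper bounds for Ifitm6, because other probes that were not called read higher on these arrays. Rtp4, for example, read -2.72 on untreated 3 and -3.58 on C5a 3 without being called. The order of Ifitm6 in samples numbered 3 against numbers 1 and 2 was therefore not settled. The log2 difference over all 6 arrays was -0.65 (SE 0.74, 95% interval -2.39 to 1.09) and includes those readings. With the replicate block the SE was 0.21 (limma unadjusted p = 0.0302, adjusted p = 0.926), and in that fit 4.23% of all genes had an unadjusted p under 0.05. Without the block, leaving out 1 sample moved the size of the difference. It was -0.05 without C5a 3, -1.30 without untreated 3, -0.20 without untreated 2 and -1.17 without C5a 2. Without both samples numbered 3 it was -0.70 (SE 0.42), close to the value over all 6 arrays.

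**Figure D1:**
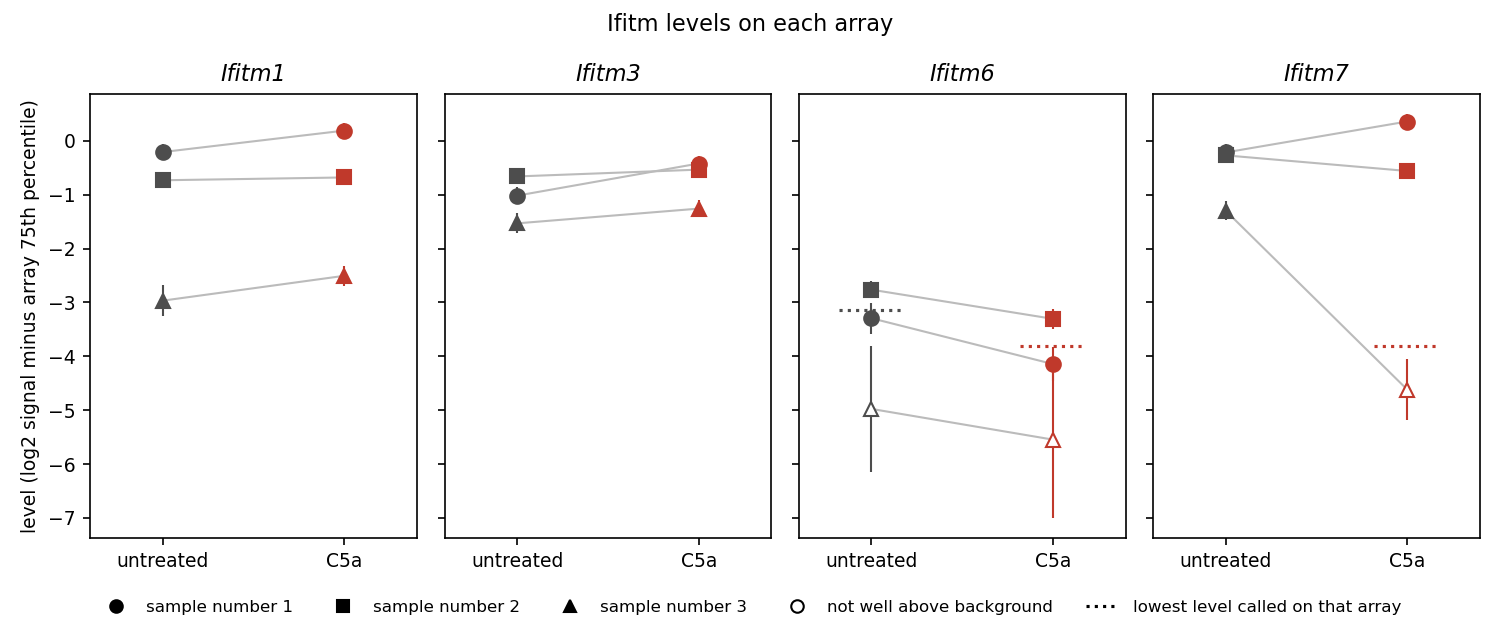
Levels of Ifitm1, Ifitm3, Ifitm6 and Ifitm7 on each array, as log2 signal minus the array's 75th percentile over detected probes, with lines joining same-numbered samples, bars giving the scanner software's error of the spot, and open symbols for spots not well above background. The Ifitm1 samples numbered 3, at -2.97 and -2.50, sit far below the other 4, and the dotted lines in the Ifitm6 panel (-3.14 and -3.81) show the lowest level called on those arrays; panels hold different probes and are not compared in height.

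No call was made for an Ifitm gene when C5a samples were set against untreated ones. With limma and p-values adjusted over all genes by Benjamini-Hochberg, 0 of 3 members had an adjusted p under 0.05 (adjusted p = 0.999 for each), where 0% of the 4488 genes tested did. With the replicate block 0 of 3 did as well (adjusted p = 0.926 for each, and 0% of all genes). At an unadjusted p under 0.05, limma without the block had 105 genes (2.34%) and 0 members. The untreated and C5a arrays did not overlap for 0 of 3 members and for 5.68% of all genes. Differences were positive for Ifitm1 and Ifitm3 and negative for Ifitm6, with a median of 0.30, where 54.9% of all genes had a positive difference and the median was 0.04. These values were known when the genes were chosen and are given as description. The intervals leave room for a change of over 1.5 times in either direction for Ifitm1 and for Ifitm6 (0.190-fold to 2.12-fold) without the block.

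**Figure D2:**
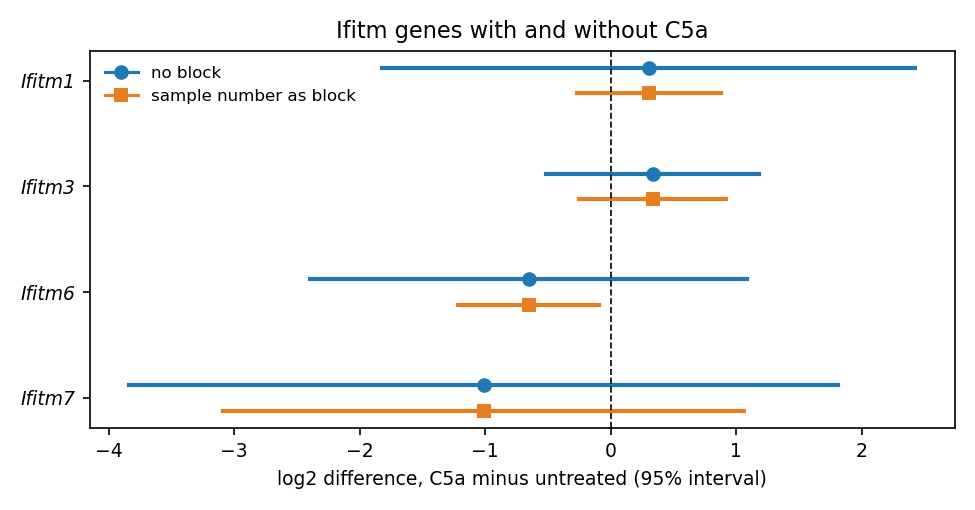
Log2 difference, C5a minus untreated, for the 3 members and Ifitm7, with 95% intervals from limma over 3 samples per group, without a block (circles) and with the sample number as a block (squares). The Ifitm1 interval runs from -1.82 to 2.43 without and from -0.27 to 0.88 with the block, and for Ifitm6 the blocked interval, -1.21 to -0.09, includes readings not above background.

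Most of the spread of Ifitm1 and Ifitm3 lay between sample numbers and not between treatments. Sample number took 97.7% of the spread of Ifitm1 over the 6 arrays (sum of squares) and 76.8% of that of Ifitm3, while treatment took 1.69% and 17.2%. Over all 4488 genes the median share was 57.8% for sample number and 8.33% for treatment. Ifitm1 and Ifitm3 are set here against the 2178 genes that, like them, were detected on all arrays. For these genes the median share between numbers was 62.3%. A larger share than that of Ifitm1 was found for 2.30% of these genes, and a larger share than that of Ifitm3 for 32.4%. Ifitm1 spanned 3.16 log2 units over the arrays (8.92-fold), more than 99.6% of these genes. The range of Ifitm3, 1.11 (2.16-fold), was wider than that of 66.5% of them, the median being 0.879. Both arrays numbered 3 were below the other 4 for Ifitm1, for Ifitm3 and for 16% of these genes. The corresponding shares for numbers 2 and 1 were 11.1% and 11.9%. Over all 4488 genes, whose dim members include readings not above background, the shares for numbers 3, 2 and 1 were 19.7%, 7.75% and 9.67%. Number 3 was singled out here after its values were seen. With normexp background correction Ifitm1 and Ifitm3 were still lowest in number 3, but their ranges shrank to 1.73 and 0.60 log2 units. Ifitm1 then read -1.13 on untreated 3 and -1.25 on C5a 3, against -0.36 on untreated 2 and on C5a 2. The size of the step thus depended on background handling, and the rank of these ranges among all genes was not computed with normexp. Ifitm6 is left out of these counts because its readings in number 3 were not above background, and with normexp they were not the lowest.

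**Figure D3:**
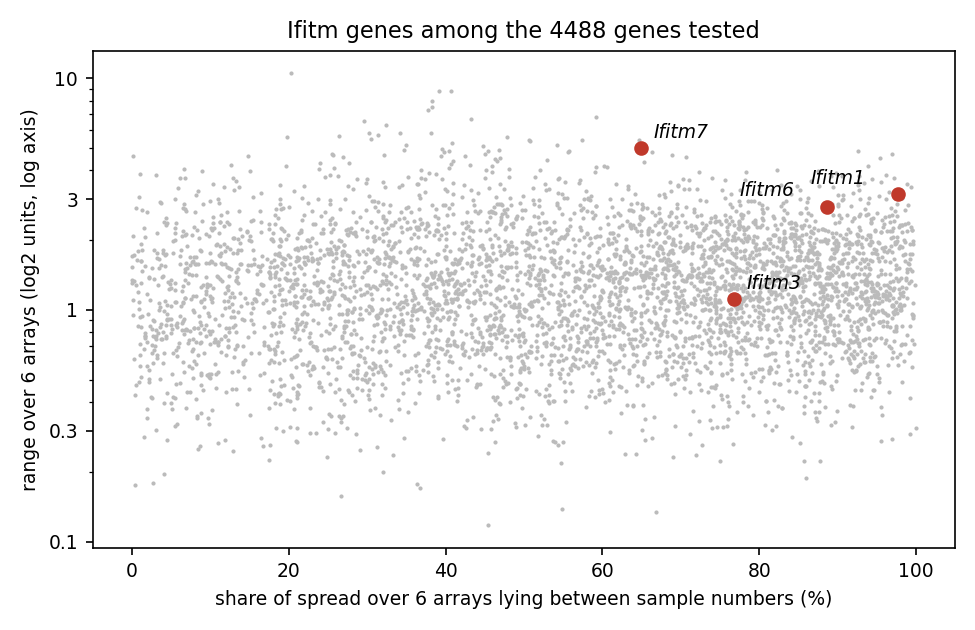
Each of the 4488 genes tested, by the share of its spread over the 6 arrays that lies between sample numbers (x axis, percent) and by its range over the arrays (y axis, log2 units on a log axis), with the Ifitm genes in red. Ifitm1 lies at 97.7% and 3.16 log2 units, near the right edge, and Ifitm3 lies at 76.8% and 1.11, within the bulk of genes, while the points of Ifitm6 and Ifitm7 include readings not above background.

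Of the other family genes, Ifitm7 was the one with a measured signal. Its probe (A_51_P184928) read -0.21, -0.27 and -1.30 for untreated samples numbered 1 to 3, against 0.36, -0.56 and -4.62 for the C5a samples. It was well above background on 5 arrays, and C5a 3 was the exception. The other 5 samples were at least 5.71-fold above the lowest level called on that array (-3.81). Some uncalled probes read higher there, such as Rtp4 at -3.58, so this sets no lower limit on the difference from C5a 3. The log2 difference of -1.01 (SE 1.20) rested on C5a 3, since the pairs numbered 1 and 2 differed by 0.57 and -0.29. The files give no probe sequence, so reads of one Ifitm transcript by another's probe were not tested. Ifitm5, known for its role in bone, and Ifitm10 (2 probes) were well above background on no array. The same held for all 9 probes of 6 more distant relatives in the dispanin family, Tmem91, Tmem233, Prrt2, Syndig1, Syndig1l and Trarg1.

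The genes through which interferon acts gave no call either. Of 16 listed receptor and signalling genes, 13 were tested and 0 passed, with 8 positive and 5 negative differences (median 0.11). The type I receptor chain Ifnar1, detected on every array, ranged narrowly from -2.89 to -2.59 (log2 difference -0.02, SE 0.25). Those with the smallest p on the positive side were Jak1, a kinase bound to interferon receptors, at 0.81 (SE 0.63), and Socs1, an inhibitor of that signalling, at 0.68 (SE 0.66). On the negative side they were Ifngr1, the ligand-binding chain of the interferon-gamma receptor, at -0.33 (SE 0.48), and Irf9, a transcription factor that binds the ISRE, at -0.20 (SE 0.31). These 4 differences include readings not above background, for Jak1 on untreated 1 and 3, for Socs1 and Ifngr1 on both samples numbered 3, and for Irf9 on C5a 3. Of 9 interferon genes with a probe, 1 had any array above background. This was Ifnb1, which encodes interferon beta, at -4.28 on untreated 2, -5.04 on C5a 2 and -2.83 on C5a 3, and not above background on the other 3 arrays. Among these 3 called levels of Ifnb1 the one on C5a 3 was highest, and a relation to the Ifitm levels was not tested.

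Other interferon-stimulated genes did not share 1 pattern over the arrays. Of 41 listed, 18 were tested, 0 passed, and 7 differences were positive and 11 negative (median -0.07). Irf7 is in this list and in the signalling list. Rtp4 differed by -0.66 (SE 0.27) and Oasl1 by -0.60 (SE 0.40), while the GTPase genes Gbp3 and Ifi47 differed by 0.63 (SE 0.35) and 0.51 (SE 0.37). Gbp3 and Ifi47 were above background on only 1 untreated array, number 2, and Rtp4 on neither sample numbered 3. These 3 differences thus include readings not above background. Oasl1, detected on all arrays, had its lowest value on C5a 3, at -0.09, where the other 5 arrays read 0.94 to 1.57. Of the 7 genes of this list detected on all arrays, 1 was lowest in both samples numbered 3, as was 1 of 4 such signalling genes, and both counts are Irf7. Irf7, a transcription factor of the interferon response, was above background on all 6 arrays, at -1.10, -0.72 and -2.04 without C5a and -1.16, -1.02 and -1.34 with it, in order of number. Isg15, a ubiquitin-like protein gene, ran the other way, at 0.68, 0.73 and 1.55 in untreated and 0.06, 0.69 and 1.27 in C5a 1 to 3. Its highest values were those of the samples numbered 3, where Ifitm1 had its lowest. After centring each gene on its mean, the median over the 18 genes lay between -0.24 and 0.16 on the arrays, and that of the 3 Ifitm members between -1.36 and 0.71, both including readings not above background. A median over many genes varies less than a median over few, so the widths of these ranges cannot be compared.

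**Figure D4:**
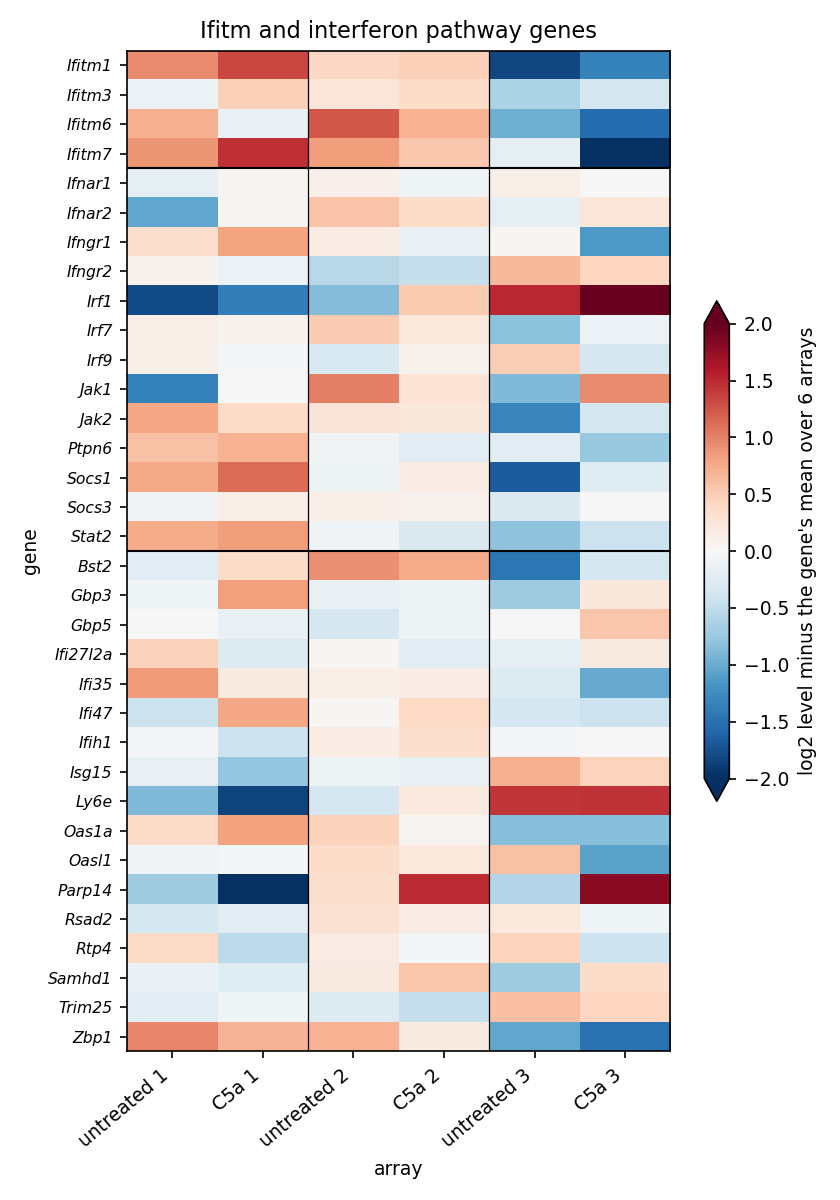
Log2 level minus the gene's mean over the 6 arrays (colour, shades end at 2 log2 units) for the 3 members and Ifitm7 (top block), 13 receptor and signalling genes (middle) and 17 other interferon-stimulated genes (bottom), with same-numbered arrays side by side; readings not above background are included. Ifitm1 and Ifitm6 are blue in the columns of number 3, and Ifitm7 is blue on C5a 3 but only faintly so on untreated 3 (-0.20). Both arrays numbered 3 were below the other 4 for 5 of the 13 genes in the middle block. The same held for 4 of the 17 in the bottom block, such as Zbp1 and Oas1a, and for 19.7% of all genes. Isg15, Irf1 and Ly6e, in contrast, are red there.

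Proteins reported, mostly in human cells, to bind, modify or travel with IFITM proteins were listed as well. Of 17 such genes, 10 were tested and 0 passed, with 8 positive and 2 negative differences (median 0.05). Zmpste24, Nedd4, Osbp, Fyn, Setd7, Zdhhc20 and Cav1 were well above background on no array. Vapa, a protein of the endoplasmic reticulum membrane, differed by 0.34 (SE 0.33) and Vcp, a membrane-remodelling ATPase, by 0.19 (SE 0.27). Atp6v0b, a proton pump subunit, and Rab7, a small GTPase of late endosomes, differed by -0.28 (SE 0.48) and -0.09 (SE 0.24). For Vcp and for Lamp1, another kept probe had the opposite sign. The tetraspanin genes Cd63 and Cd81 ran opposite ways over the sample numbers. Cd63, of late endosomes, was at 1.88, 1.90 and 0.92 in untreated and 2.05, 1.97 and 1.07 in C5a 1 to 3. Cd81, of the cell surface, was at -3.08, -2.61 and -1.40 in untreated and -2.92, -2.40 and -1.03 in C5a 1 to 3.

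The genes whose values over the 6 arrays were most like those of each member were looked up among named genes detected on all arrays. For Ifitm1 they were Ndufs6, a complex I subunit (Pearson r = 0.993 over 6 arrays), S100a6, a calcium-binding protein (0.986), and the histone gene H2ac19 (0.985), among 1424 genes compared. For Ifitm3 they were Rab5if (0.998) and the ATP synthase subunit genes Atp5b (0.979) and Atp5c1 (0.964). For Ifitm6, whose readings include the arrays below background, they were Chmp4b, of the ESCRT-III membrane-cutting machinery (0.990), the predicted gene Gm12070 (0.981) and Lgals3bp, which encodes a galectin-3-binding protein (0.979). These values describe shared ordering of 6 arrays that also share differences in brightness, and each of the 9 genes had its lowest values in the samples numbered 3.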

How the data were processed

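RNA of 6 samples was hybridised to 1-colour (Cy3) Agilent mouse arrays, 1 per sample, all on 1 slide. Agilent Feature Extraction 10.10.1.1 read the arrays (design 074809), per the file headers, and gave each spot's processed intensity, background-subtracted and not scaled between arrays, with its error and flags. The deposited series table holds log2 values. Its columns were compared with that of untreated 1. For 100% of values, after rounding, this difference lay within 0.02 of the one in log2 processed signal. The processed signal was scaled for this on the 75th percentile over all probes. The scale and direction of the deposited table are thus known and the baseline per probe is not. Medians of that table were 0.17, -0.08 and 0.18 on the untreated arrays and 0.01, -0.02 and 0.22 on the C5a arrays.

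Control spots did not enter, and replicate spots of a probe were averaged. Outlier spots were left out unless every spot of the probe was flagged. Probes were named through RefSeq accessions without versions (assembly GRCm38.p6), which matched 32994 of 56605. The array design cites mm9, so no array coordinates are given. Values are log2 processed signal minus the array's 75th percentile over probes well above background on all arrays. Probes well above background on at least 3 arrays were kept (4958), with the brightest per gene, which left 4488 genes. limma 3.58.1 in R 4.3.3 compared the groups, with Benjamini-Hochberg adjustment at 0.05, and was tested on simulated data. The number of arrays limits precision. Samples of the same number deviated from their group means together (correlation over genes 0.211, 0.269 and 0.384 for numbers 1 to 3, and -0.252 to 0.0712 between different numbers), so the fit with the replicate block is given beside the other. The labels do not say what the numbers share. Alternatives were other scalings, background correction, filters, probe rules, slide row and leaving out samples. All probes of the members were named, with the 2 tested genes of smallest unadjusted p in each direction for each list and the 3 most alike genes per member. Further genes were named after their values were seen. Members and lists were chosen with earlier results of these data known.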

Additional observations from a re-analysis of the deposited data

How the results depend on the processing

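No alternative brought an Ifitm member past the threshold. The sign of the log2 difference stayed the same in 17 of 17 alternatives for Ifitm3 (0.10 to 0.69) and in 16 of 16 for Ifitm6 (-1.30 to -0.05), which could not be fitted with probes restricted to those detected on all arrays. For Ifitm1 it stayed in 15 of 17 (-0.53 to 1.49) and turned without untreated replicate 3 and without C5a replicate 1. Leaving out samples moved it from -0.53 to 1.06, and the highest value came with slide row as a covariate. The counts of signs include alternatives that could not change a member's difference. Each member has 1 probe, so filters and probe rules left its difference as it was wherever it was fitted. The replicate block is balanced over the groups and left it unchanged too. The deposited table repeats the scaling over all probes. These counts are therefore not counts of independent checks. The replicate block changed no call, with a lowest adjusted p of 0.926. Leaving out both samples numbered 3, chosen after seeing the data, gave 0.23 (SE 0.43) for Ifitm1 and 0.36 (SE 0.32) for Ifitm3. Over all genes, limma with Benjamini-Hochberg adjustment called 0 genes (105 at an unadjusted p under 0.05) and 47 with no filter on dim probes, none of them a member; the cause was not tested. All other alternatives called 0. Slide row holds C5a 1 with all untreated arrays and parts it from C5a 2 and 3. Signal over background limits Ifitm6 on 2 arrays and Ifitm7 on 1.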
